A study of Sus scrofa with 12 samples.

Results

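Left ventricular RNA of 12 female Ossabaw pigs, a strain prone to obesity, was examined for 6 genes selected on their counts: each was lower in saline-treated heart failure (HF) than in chow control hearts, with no overlap of animals. They are 6 of 35670 genes in the count table and 6 of the 13476 that passed the filter on low counts, which all 6 passed. In the reference names, 5 of the 6 carry a symbol: ART3, NUP54, TLE3, KANK1 and GAREM1. They are ENSSSCG00000008976 (ART3), ENSSSCG00000008979 (NUP54), ENSSSCG00000004971 (TLE3), ENSSSCG00000005235 (KANK1) and ENSSSCG00000003731 (GAREM1). The identifier ENSSSCG00000009211 carries none there and is given as it stands. The choice rested on the difference between HF saline and chow control, so the values and model output for that difference are given only as a description and support nothing.

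All animals were wild type. The chow control group (4 animals) received normal chow, without banding and without vector. The HF saline group (4 animals) started on high-fat feed when 2 months old, underwent aortic banding, which loads the left ventricle, and received saline; it models heart failure with preserved ejection fraction. The HF KBD group (4 animals) had the same diet and banding and received 8e12 vector genomes per kg of an AAV9 vector by intravenous infusion right after banding. The vector carries a kinase binding domain (KBD) peptide of AKAP6, a scaffold protein that gathers kinases and phosphatases at the nuclear envelope of cardiomyocytes, and its entry in the count table names cTnT, the cardiac troponin T gene. In both HF groups tissue was taken 6 months after treatment. No such time or age is recorded here for the chow control animals. Diet and banding came together in both HF groups, and no HF group received a vector without the peptide, so the effects of diet, banding, vector and peptide cannot be told apart one by one.

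The named genes act at different places in a cell. ART3 is a membrane-anchored member of the ADP-ribosyltransferase family, found in heart, skeletal muscle and testis, whose enzyme activity is in doubt because its catalytic motif is altered. NUP54 is a nucleoporin of the central channel of the nuclear pore, where it assembles with NUP62 and NUP58. TLE3 is a Groucho family corepressor that is recruited by DNA-binding factors such as the TCF/LEF proteins of Wnt signalling and is also known from fat cell differentiation. KANK1 is an ankyrin repeat protein that binds talin at the rim of focal adhesions and links it to cortical microtubules, and it restrains actin polymerisation. GAREM1 is an adaptor that binds GRB2 and passes signals of growth factor receptors on to the MAP kinase ERK.

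The total expected count of a library ran from 7721638 to 12637958, and from 17503 to 18138 genes had at least 1 count. Vector transcripts were counted in the 4 HF KBD animals (242, 400, 269 and 712 counts) and in none of the other 8. The cardiomyocyte markers were abundant in every group, with a summed level of 10 genes from 39714 to 52690 CPM (counts scaled to library size after TMM normalisation). In a principal component analysis HF saline replicate 1 stood apart on the first axis, at 9.87 against -13.1 to -12.1 in the other HF saline animals. The chow control animals spread from -6.56 to 34.6 on the same axis. Results on the members are therefore also given without HF saline replicate 1.

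In the HF saline hearts the means of the 6 genes lay at 42.0% to 69.3% of the chow control means. Their log2 fold changes ran from -1.26 to -0.53 with a median of -0.69, where the median of all 13476 genes was -0.0024. All 6 are among the 12 genes called lower in this comparison by edgeR at an adjusted p under 0.05, which is 0.089% of genes tested, and 0.26% were called in either direction. Groups without overlap and lower in HF saline made up 3.19% of genes. These shares only describe the choice. Calling all 6 together needed all 12 animals. Leaving out any 1 of them, HF KBD animals included, left 0 to 4 of the 6 called. It was 0 without chow control replicate 2 and 0 without HF saline replicate 4. The genes differed in this: of these 12 fits, ART3 was called in 10 and TLE3 in 9. KANK1 was called in 3, GAREM1 in 2, and NUP54 and ENSSSCG00000009211 in 1 each. The 6 other genes called lower are no members. The adjusted p-values of the members in edgeR ran from 0.0171 for ART3 to 0.0499 for ENSSSCG00000009211. Just outside that threshold lay HBEGF, a growth factor gene, with an adjusted p of 0.0518 and groups that did not overlap either. By ratio, the narrowest gap between the groups among the members was that of KANK1. Its lowest chow control animal (96.6 CPM) stood at 1.14 times its highest HF saline animal (84.9 CPM). In CPM the narrowest gap was that of TLE3 (4.73 CPM).

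In the HF KBD hearts the 6 genes took different positions. ART3 lay above all HF saline animals and below all chow control animals in each of the 4 treated hearts. KANK1 lay inside the HF saline range in all 4, and GAREM1 lay inside it in 3 and below it in 1. NUP54, TLE3 and ENSSSCG00000009211 had means between the other groups, with treated animals divided between the HF saline range and higher values. None of these differences passed the test: 0 of the 6 genes were called between HF KBD and HF saline, in a comparison that called 0% of all genes by edgeR, DESeq2 or limma-voom, with 559, 574 and 688 genes at an unadjusted p under 0.05. At an unadjusted p under 0.05, 1 of the 6 (ART3) was higher in HF KBD, where 2.32% of all genes were. The HF saline animals had also served to choose the genes for low levels, which favours higher values in HF KBD. Differences from HF saline are therefore no separate evidence.

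**Figure D1:**
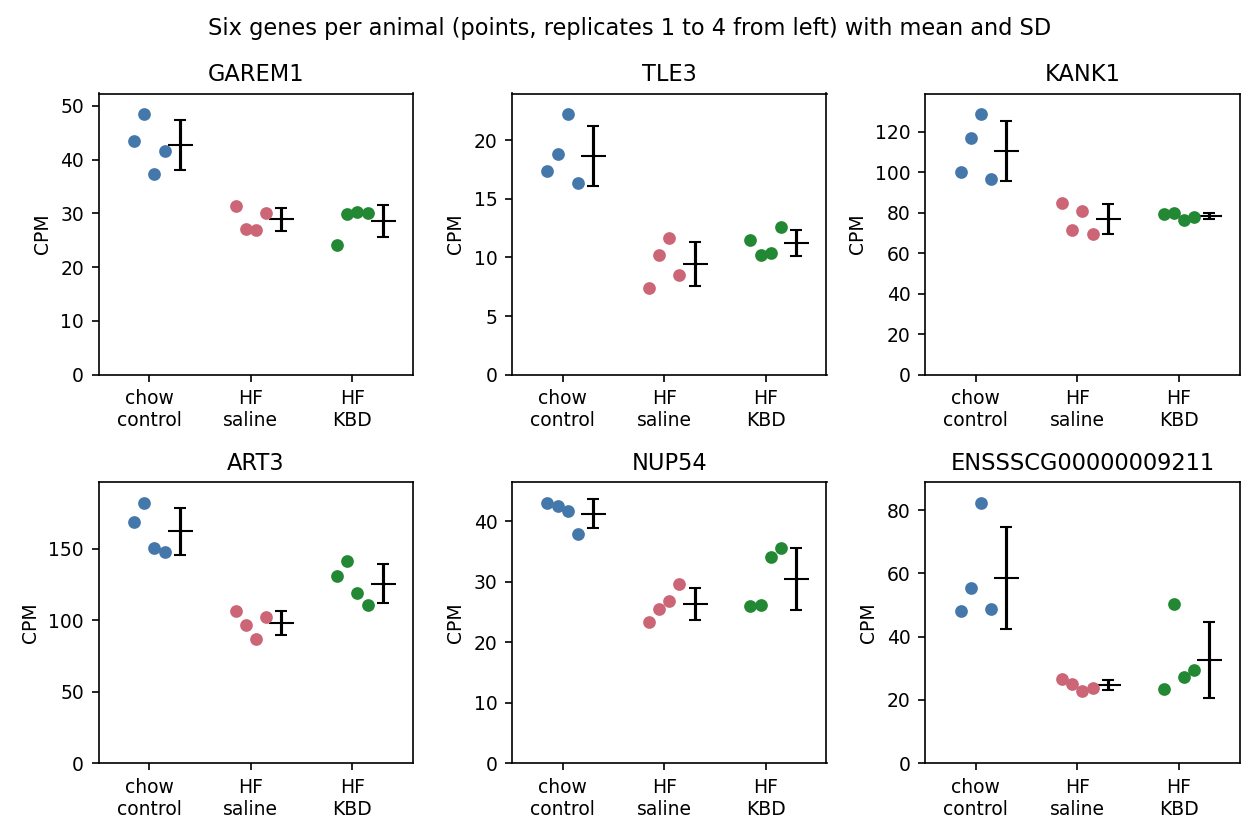
CPM of each of the 6 genes (vertical axis from 0) by group, 1 point per animal with replicates 1 to 4 from left to right, and the mean with its SD as a black bar beside the points (n = 4). The 4 HF KBD points of ART3 sit between 110.9 and 141.8 CPM, in the gap between the other groups, while those of KANK1 sit between 76.2 and 79.7 CPM, inside the HF saline range.

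ART3 is encoded on chromosome 8, bases 71673799 to 71795332 (Sscrofa11.1, from the RefSeq entry of that symbol). Its level was 168.6, 182.3, 150.7 and 147.6 CPM in chow control replicates 1 to 4. In HF saline it was 106.4, 96.4, 86.96 and 102.4 CPM, and in HF KBD it was 131.0, 141.8, 119.3 and 110.9 CPM. The 3 groups thus formed 3 separate bands, with HF saline lowest and chow control highest. The means were 162.3 ± 16.2, 98.0 ± 8.44 and 125.7 ± 13.5 CPM (SD, n = 4 each), in the order chow control, HF saline, HF KBD. The log2 fold change of HF KBD over HF saline was 0.36 with a standard error of 0.0984 and a 95% interval from 0.15 to 0.57 (edgeR, unadjusted p = 0.00272, adjusted p = 1.00). That p-value ranked 26th of the 13476 genes in this comparison. A higher level with no overlap was found in 1.45% of all genes. ART3 was chosen for its low level in these same HF saline animals, which favours a higher level in HF KBD. The p-value, its rank and the lack of overlap are therefore given only as a description.

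The position of the HF KBD mean between the other groups was expressed on the log2(CPM + 0.5) scale, where 0% is the HF saline mean and 100% the chow control mean. For ART3 it was 49.1%, with single animals at 58.2%, 73.8%, 39.5% and 25.0% in replicates 1 to 4. It stayed between 40.9% and 57.2% when any animal was left out, and was 51.8% without HF saline replicate 1. The denominator of this position comes from the groups used to choose the genes, and such a choice by itself favours low HF saline values and therefore positions above 0.

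**Figure D2:**
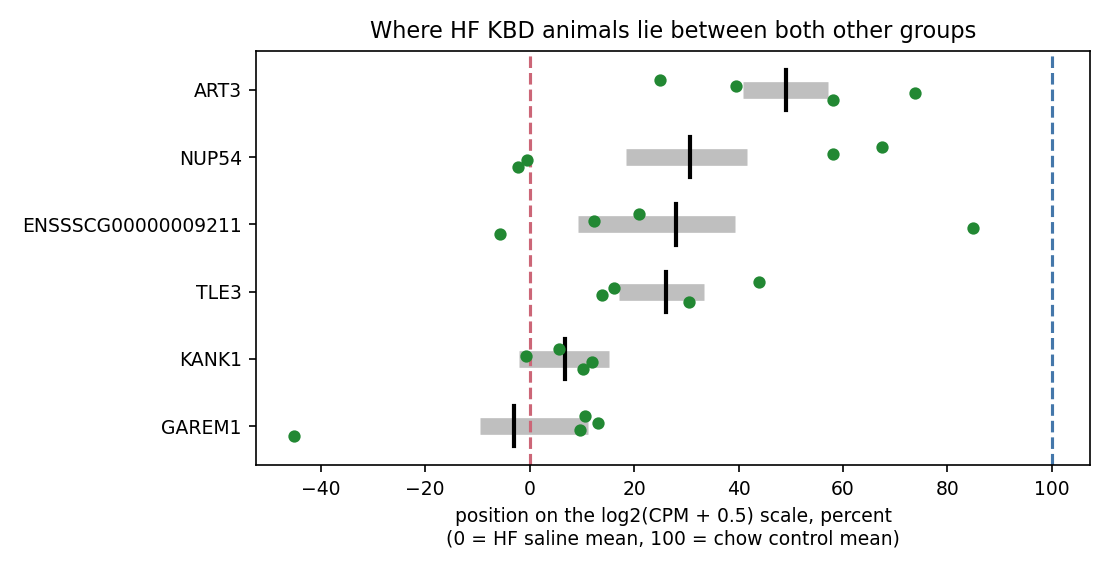
Position of the 4 HF KBD animals (green points, replicates 1 to 4 from bottom to top within a row) and of their mean (black line) on a log2(CPM + 0.5) scale in percent, with dashed lines at the HF saline mean (0) and the chow control mean (100). Grey bars span the mean's position when each of the 12 animals is left out in turn. They reach from 40.9% to 57.2% for ART3 and from -1.95% to 15.1% for KANK1.

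NUP54 lies next to ART3 on chromosome 8 (71792153 to 71833180), and the RefSeq spans of both genes share 3180 bases. Its level was 43.0, 42.4, 41.7 and 37.8 CPM in chow control replicates 1 to 4. It was 23.3, 25.4, 26.8 and 29.5 CPM in HF saline and 25.9, 26.1, 34.1 and 35.5 CPM in HF KBD. HF KBD replicates 1 and 2 lay inside the HF saline range, and replicates 3 and 4 lay above it and below all chow control animals. The means were 41.2 ± 2.35, 26.2 ± 2.61 and 30.4 ± 5.11 CPM (SD, n = 4 each) in chow control, HF saline and HF KBD. The log2 fold change of HF KBD over HF saline was 0.21 with a 95% interval from -0.04 to 0.47 (edgeR, unadjusted p = 0.0958, adjusted p = 1.00). The position of the mean was 30.7%, and 24.2% without HF saline replicate 1.

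The counts of ART3 and NUP54 are not independent of each other. Both had values that were not whole in 11 of 12 animals, while the sum of both was whole in all 12 (within 0.001). Reads were thus divided between these genes in the estimated counts, and the number of shared reads cannot be read from the sums. The NUP54 share of the summed counts was 18.9% to 21.6% in chow control and 17.9% to 23.5% in HF saline. In HF KBD it was 16.5%, 15.5%, 22.2% and 24.3% in replicates 1 to 4. The 2 treated animals with the highest ART3 level had the lowest NUP54 level, and the reverse. Whether this came from the division of reads was not tested.

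The sum of both genes does not depend on that division. It was 211.6, 224.7, 192.4 and 185.4 CPM in chow control replicates 1 to 4. It was 129.6, 121.8, 113.7 and 131.9 CPM in HF saline and 156.9, 167.9, 153.3 and 146.4 CPM in HF KBD. All 4 treated animals again lay between the other groups, with means of 203.5 ± 18.0, 124.3 ± 8.26 and 156.1 ± 8.97 CPM (SD, n = 4 each) in chow control, HF saline and HF KBD. When the 2 genes entered the model as 1 feature, HF KBD was 0.33 above HF saline on the log2 scale, with a standard error of 0.0811 and a 95% interval from 0.15 to 0.50 (edgeR, unadjusted p = 0.00121, adjusted p = 1.00). The position of the HF KBD mean was 46.4%. This summed feature was formed after the values had been seen. Both of its genes were chosen for low HF saline values, so its p-value is also only a description.

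**Figure D3:**
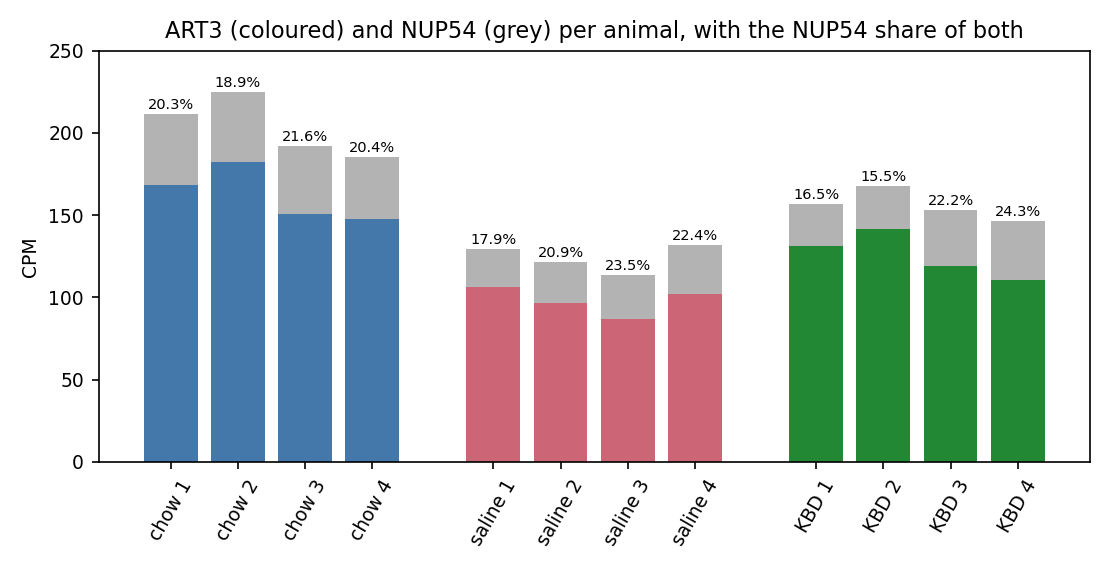
CPM of ART3 (coloured by group) with that of NUP54 stacked on it (grey) for each of the 12 animals, and the NUP54 share of the summed expected counts printed above each bar. Bar heights in HF KBD, about 146.4 to 167.9 CPM, stand between those of HF saline and chow control, while the NUP54 share differs among the 4 treated animals.

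Neighbouring genes on chromosome 8 were examined because the counting is not stated to use strand. CXCL10, a chemokine gene whose RefSeq span lies within that of ART3, had 60.8 ± 57.7 CPM in chow control, 23.96 ± 11.5 in HF saline and 15.004 ± 16.6 in HF KBD (SD, n = 4 each). Its lowest mean was in HF KBD, unlike ART3, and no comparison called it (edgeR, adjusted p from 0.418 to 1.00). CXCL9, the chemokine gene before ART3, had 2.197 ± 1.23, 2.76 ± 3.13 and 1.69 ± 0.805 CPM (SD, n = 4 each) in the same order and was not called. SCARB2, a lysosomal membrane protein gene on the other side of NUP54, had 140.3 ± 13.4, 142.8 ± 65.6 and 144.5 ± 52.5 CPM (SD, n = 4 each) in the same order.

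TLE3 lies on chromosome 1 (167808508 to 167855913) and had the lowest counts of the 6 genes, down to 77 in HF saline replicate 1, where counting error alone is 11.4%. Its level was 17.4, 18.8, 22.2 and 16.4 CPM in chow control replicates 1 to 4. It was 7.37, 10.2, 11.6 and 8.53 CPM in HF saline and 11.5, 10.3, 10.4 and 12.6 CPM in HF KBD. All treated animals were below the lowest chow control animal, 3 of 4 lay inside the HF saline range, and replicate 4 lay above it. The means were 18.7 ± 2.56, 9.43 ± 1.87 and 11.2 ± 1.11 CPM (SD, n = 4 each) in chow control, HF saline and HF KBD. HF KBD was 0.25 above HF saline on the log2 scale with a 95% interval from -0.09 to 0.59 (edgeR, unadjusted p = 0.139, adjusted p = 1.00). The position of the mean was 26.2%. Without HF saline replicate 1, the lowest animal for this gene, it was 17.1% and the log2 fold change was 0.15.

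ENSSSCG00000009211 had the highest coefficient of variation of the 6 genes in chow control (27.5%) and in HF KBD (37.1%), and the lowest in HF saline (6.31%). It had 48.1, 55.5, 82.4 and 48.8 CPM in chow control replicates 1 to 4. In HF saline it had 26.5, 25.2, 22.98 and 23.8 CPM, a narrow band with an SD of 1.55 CPM. In HF KBD it had 23.4, 50.4, 27.3 and 29.4 CPM. HF KBD replicate 2 lay inside the chow control range and was the only one of 24 treated values over the 6 genes to do so. The means were 58.7 ± 16.1, 24.6 ± 1.55 and 32.6 ± 12.1 CPM (SD, n = 4 each) in chow control, HF saline and HF KBD. HF KBD was 0.40 above HF saline on the log2 scale with a 95% interval from -0.10 to 0.90 (edgeR, unadjusted p = 0.104, adjusted p = 1.00). The difference rested mainly on that animal: without HF KBD replicate 2, the log2 fold change was 0.12 (unadjusted p = 0.509) and the position of the mean was 9.19% instead of 28.1%. Without HF saline replicate 1 these values were 0.44 and 30.2%. Chow control replicate 3 was high in the same way, and without it the log2 fold change of HF saline against chow control was -1.05.

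KANK1 lies on chromosome 1 (221015042 to 221218875). Its level was 100.1, 116.8, 128.5 and 96.6 CPM in chow control replicates 1 to 4. It was 84.9, 71.3, 80.7 and 69.5 CPM in HF saline and 79.2, 79.7, 76.2 and 77.9 CPM in HF KBD. All 4 treated animals lay inside the HF saline range and below all chow control animals, with a coefficient of variation of 2.04% against 9.67% in HF saline and 13.5% in chow control. That spread was smaller than the counting error of a single animal for this gene, which ran from 2.52% to 3.63%. The means were 110.5 ± 14.9, 76.6 ± 7.404 and 78.3 ± 1.60 CPM (SD, n = 4 each) in chow control, HF saline and HF KBD. HF KBD was 0.03 above HF saline on the log2 scale with a 95% interval from -0.18 to 0.24 (edgeR, unadjusted p = 0.755, adjusted p = 1.00). The position was 6.81%, and 15.1% without HF saline replicate 1.

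Among tested genes with a symbol and a RefSeq position, the nearest before KANK1 was VLDLR, which encodes a lipoprotein receptor. It spans bases 219178501 to 219210332, so it does not adjoin KANK1, and genes without a symbol were not considered. VLDLR had 346.7 ± 35.0 CPM in chow control, 271.4 ± 15.6 in HF saline and 280.0 ± 8.95 in HF KBD (SD, n = 4 each). Its log2 fold change of HF saline against chow control was -0.35 (edgeR, unadjusted p = 0.000596, adjusted p = 0.103), so it did not pass the test. DOCK8, on the other side, had 2.38, 3.51 and 3.06 CPM on average in the same order. The tested neighbours of TLE3 (RPLP1 and UACA) and of GAREM1 (RNF138 and ASXL3) had log2 fold changes from -0.17 to 0.12 in HF saline against chow control, and none was called.

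GAREM1 lies on chromosome 6 (116100371 to 116324853). Its level was 43.5, 48.4, 37.4 and 41.7 CPM in chow control replicates 1 to 4. It was 31.3, 27.2, 26.9 and 30.2 CPM in HF saline and 24.1, 29.9, 30.3 and 30.02 CPM in HF KBD. Of the treated animals, 3 lay inside the HF saline range, and replicate 1 was below all HF saline animals. The means were 42.7 ± 4.59, 28.9 ± 2.20 and 28.6 ± 2.98 CPM (SD, n = 4 each) in chow control, HF saline and HF KBD. The log2 fold change of HF KBD over HF saline was -0.01 with a 95% interval from -0.24 to 0.21 (edgeR, unadjusted p = 0.905, adjusted p = 1.00). Its sign was not settled: it was 0.03 without HF saline replicate 1 and 0.06 without HF KBD replicate 1. The position of the mean was -2.94%.

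Against chow control, all 6 genes were lower in HF KBD, with log2 fold changes from -0.85 to -0.37 and a median of -0.54, where the median of all genes was -0.0015. The chow control animals had also served to choose the genes, so the direction is no separate evidence. Groups did not overlap for 5 of the 6, and ENSSSCG00000009211 was the exception, where 3.67% of all genes were lower without overlap. All 6 had an unadjusted p under 0.05, where 6.25% of all genes were lower by that measure, and 0 of the 6 passed the adjusted threshold, which 0.0519% of all genes did and 0.0223% did as lower. The log2 fold change was -0.58 for GAREM1 and -0.50 for KANK1, with an adjusted p of 0.0833 each. It was -0.74 for TLE3 (adjusted p = 0.0863), -0.44 for NUP54 (adjusted p = 0.188), -0.37 for ART3 (adjusted p = 0.186) and -0.85 for ENSSSCG00000009211 (adjusted p = 0.189, all by edgeR). The DESeq2 Wald test called all 6, with adjusted p-values from 0.00072 to 0.0495, so the call depended on the method. It called more genes in general: 199 of the 12160 genes to which it gave an adjusted p-value, 105 of them lower.

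**Figure D4:**
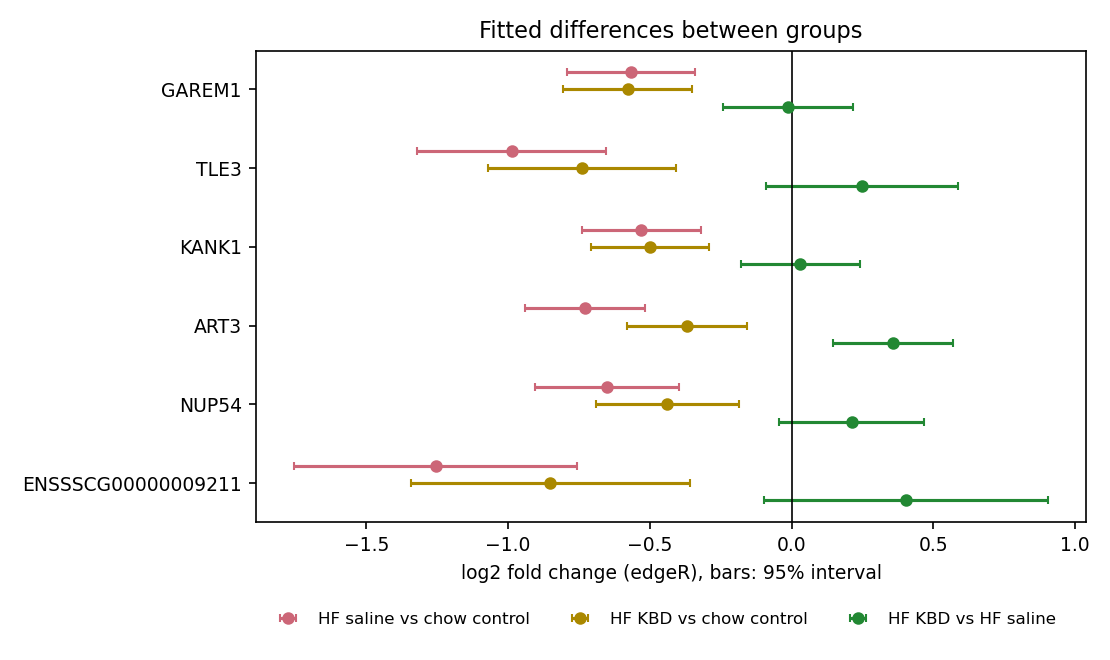
Log2 fold changes of the edgeR model (horizontal axis) with 95% intervals for the 6 genes in HF saline against chow control, HF KBD against chow control and HF KBD against HF saline. The first of these was used to choose the genes, and its animals also enter the others. For HF KBD against HF saline, the interval of ART3 (0.15 to 0.57) lies above 0 and those of the other 5 genes include 0.

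For GAREM1 and KANK1, the intervals of the difference between HF KBD and HF saline included 0 and reached 0.21 and 0.24 on the log2 scale. For TLE3, NUP54 and ENSSSCG00000009211 the intervals included 0 and reached 0.59, 0.47 and 0.90, so with 4 animals per group the data do not separate no difference from one of that size. Whether the genes differ from each other in their shift was not tested.

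The treated animals did not order the same way for every gene. Among the 4 HF KBD animals, replicate 2 had the highest level of ART3, KANK1 and ENSSSCG00000009211. Replicate 4, with the most vector transcript (65.3 CPM of the unscaled total, against 24.9, 42.8 and 23.98 in replicates 1 to 3), had the highest level of TLE3 and NUP54 and the lowest of ART3. Replicate 1 had the lowest level of GAREM1, NUP54 and ENSSSCG00000009211. The median position over the 6 genes was 4.04%, 12.97%, 14.6% and 22.97% in replicates 1 to 4. With 4 animals no relation to the vector level was tested.

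Across the 12 animals each of the 15 pairs of members had a Pearson r of log2(CPM + 0.5) from 0.70 to 0.87, a range that follows from choosing genes with the same difference between groups. After the group means were removed, r ran from -0.56 to 0.51 with a median of 0.07 (12 animals, shared libraries). Of the 15 pairs, 9 had a value above 0. Whether the genes move together within groups was not tested, as 12 animals and counting error make such values imprecise. KANK1 and ENSSSCG00000009211 had the highest value (0.51), and TLE3 was low with ART3 (-0.56) and with GAREM1 (-0.54). ART3 and NUP54, which share reads, had -0.43.

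The genes most like each member within groups were listed by the same measure among 9072 named genes of at least 5 CPM. For TLE3 the highest was MYPN, which encodes the sarcomere protein myopalladin (r = 0.91), with 150.3 CPM in chow control, 111.7 in HF saline and 123.4 in HF KBD on average. For KANK1 it was MDH2, mitochondrial malate dehydrogenase (r = 0.96), for GAREM1 YTHDF1, a reader of methylated RNA (r = 0.93), and for ART3 DHRS3, a retinal reductase (r = 0.90). For NUP54 it was ASB5 (r = 0.90), and for ENSSSCG00000009211 it was ZNF569 (r = 0.91). With 12 animals and so many candidates, values of this height describe these libraries only. None of these 6 genes was called in HF saline against chow control (edgeR, adjusted p from 0.128 to 0.950).

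Markers of other cell types were set beside these results. The summed level of 7 smooth muscle and pericyte markers was 557 to 722 CPM in chow control, 431 to 464 in HF saline and 503 to 637 in HF KBD, so HF saline was lowest and did not overlap with either group. Its 7 genes had a median log2 fold change of -0.51 in HF saline against chow control and 0.33 in HF KBD against HF saline. For ART3 and for the sum of ART3 and NUP54, HF saline was also lowest without overlap. Both genes were chosen for lying below chow control in HF saline, so that part of the likeness was set by the choice. In HF KBD no animal reached the chow control range for ART3 or for the sum, while the marker sums of these groups overlapped. MYH11, smooth muscle myosin, averaged 64.0, 31.7 and 78.4 CPM in chow control, HF saline and HF KBD, whereas KCNJ8, a potassium channel gene of pericytes, averaged 167.6, 117.7 and 112.7 CPM. The 7 fibroblast markers summed to 1557 to 2584, 1212 to 1705 and 1509 to 1890 CPM in the same order, with overlap between all groups. COL3A1 made up much of that sum, and counted gene by gene, 6 of 7 were lower in HF saline than in chow control at an unadjusted p under 0.05 (median log2 fold change -0.45), and 3 of 7 were higher in HF KBD than in HF saline (median 0.37). The corresponding counts for the smooth muscle and pericyte list were 6 of 7 and 4 of 7. Among all 13476 genes, 1592 were at that level in either direction in HF saline against chow control, and 559 in HF KBD against HF saline (edgeR). None of these 14 marker genes was called in any comparison (edgeR, adjusted p of at least 0.118), and their part in the members' values was not tested. In tissue RNA, fewer cells of a type and less RNA per cell cannot be told apart.

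**Figure D5:**
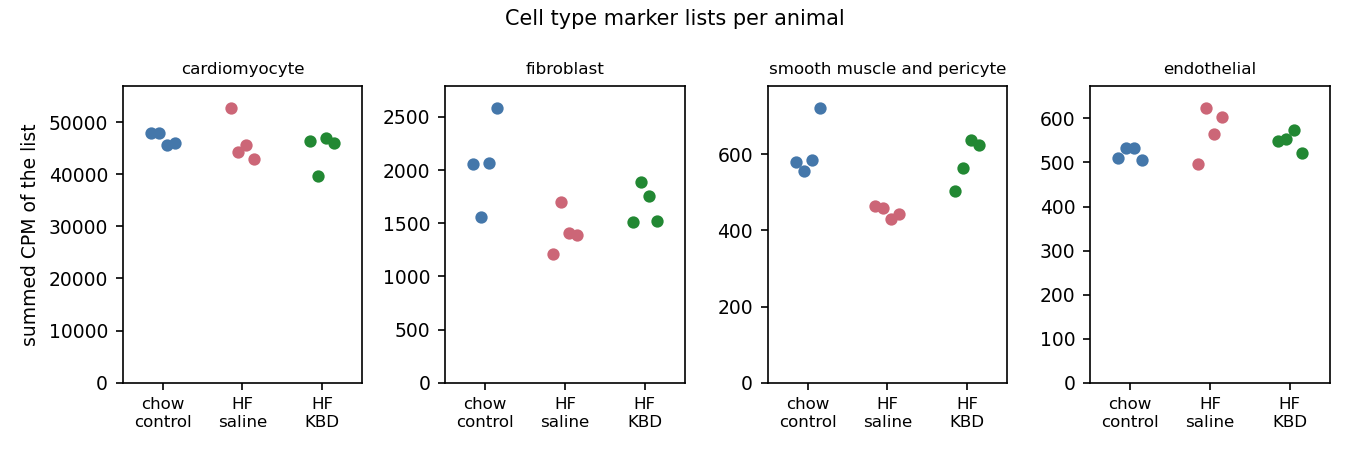
Summed CPM of the tested genes of 4 cell type marker lists (vertical axes from 0), 1 point per animal with replicates 1 to 4 from left to right. The smooth muscle and pericyte sum is lowest in HF saline, at 431 to 464 CPM, while the ranges of the cardiomyocyte sums overlap between groups.

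The other marker lists overlapped between HF saline and chow control, except T and B cells. Their 2 tested genes summed to 2.49 to 9.50 CPM in HF saline, 1.22 to 2.17 in chow control and 1.10 to 2.88 in HF KBD. Endothelial markers (6 genes) summed to 505 to 533, 497 to 624 and 522 to 575 CPM in chow control, HF saline and HF KBD. Their overlap rested on HF saline replicate 1 (497 CPM), as the other HF saline animals had 566 to 624 CPM. In HF saline against chow control their median log2 fold change was 0.29, and 2 of 6 were higher at an unadjusted p under 0.05 (edgeR). At that level were 1592 of all 13476 genes in either direction. Macrophage markers (7 genes) summed to 247 to 279, 192 to 369 and 197 to 291 CPM, and adipocyte markers (2 tested genes, with LEP at 0 counts) to 1104 to 1480, 1157 to 1630 and 1164 to 1786 CPM. Nearly all of the adipocyte sum was LPL. The other gene, FABP4, encodes a fatty acid binding protein and averaged 57.5, 113.2 and 106.2 CPM in chow control, HF saline and HF KBD. Its log2 fold change was 0.98 in HF saline against chow control (edgeR, unadjusted p = 0.000401, adjusted p = 0.0844). Whether this reflects a number of fat cells was not tested. Erythroid markers (2 genes) summed to 27.2 to 274.1, 70.7 to 200.6 and 94.9 to 201.4 CPM, and Schwann cell and neural markers (3 genes) to 6.10 to 11.5, 7.17 to 10.6 and 10.04 to 14.6 CPM. None of these genes was called in any comparison.

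Of 47 tested entries in 5 pathway lists for the failing heart, 2 were called in HF saline against chow control and 0 in HF KBD against HF saline. NPR3, the clearance receptor of natriuretic peptides, was called lower among 8 wall stress genes, at 113.3 ± 19.7 CPM in chow control, 69.7 ± 3.78 in HF saline and 77.0 ± 10.02 in HF KBD (SD, n = 4 each). HADHB, a subunit of the mitochondrial trifunctional protein of fatty acid oxidation, was called higher among 11 genes of fatty acid and glucose use, at 1066 ± 32.9, 1506 ± 175.0 and 1619 ± 133.6 CPM (SD, n = 4 each). HADHB was also called in HF KBD against chow control. Of 10 calcium handling, 10 matrix and 8 AKAP6 complex genes, 0 were called in any comparison by edgeR. In HF saline against chow control, 1, 5 and 1 of them had an unadjusted p under 0.05, where 1592 of all 13476 genes did. AKAP6 itself had 86.3 ± 9.61, 95.5 ± 4.86 and 96.02 ± 5.67 CPM (SD, n = 4 each) in chow control, HF saline and HF KBD.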

How the data were processed

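RNA of 12 left ventricles, 1 per pig, was sequenced after poly(A) selection, per the labels' protocols. Expected counts for each gene, 1 column per animal, were deposited by the authors. The submitters' processing notes name STAR 2.7.10a, RSEM 1.3.1 and the build Sscrofa11.1. Strand use and annotation release are not given in the sources used here. Of all gene values, 4.54% were not whole.

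Columns were assigned through their headers, which are sample titles. The labels give a single batch for the 12 libraries, and replicate numbers only name animals. Symbols were found for 15623 of 35670 identifiers (43.8%), and positions come from RefSeq Sscrofa11.1 by symbol. Expected counts were rounded, the vector row was left out of the tests, and filterByExpr of edgeR (minimum count 10, total 15) left 13476 genes. TMM scaling and the quasi-likelihood F-test with robust dispersions were run in R 4.3.3 with edgeR 4.0.16 over all 12 animals, 1 mean per group, with Benjamini-Hochberg adjustment over all genes and a threshold of 0.05. Standard errors are the fold change over the square root of F. Counting errors assume Poisson counts and cover counting only. The model was tested on simulated data. Counts of all 66 pairs of animals differed beyond sampling noise (chi-square per degree of freedom of at least 8.92).

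The members and the lists were chosen with earlier results of these data known. Named genes are the members, the 2 genes most like each within groups (the first is named), their neighbours, and the genes with the smallest p in a list. Neighbours are the nearest tested genes on each side that have a unique symbol and a RefSeq position. Nearer genes without a symbol could thus be missed. Alternatives were the Wald test of DESeq2 1.42.0, its size factors in edgeR, voom of limma 3.58.1 with weights for sample quality, other filters, models of 2 groups, counts not rounded, and leaving out each animal. Summing ART3 and NUP54 was added after seeing the data.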

Additional observations from a re-analysis of the deposited data

Results flagged for a closer look

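Among the 18 sets of 4 values (6 genes in 3 groups), the distance of the highest and of the lowest animal to its neighbour was divided by the spread from lowest to highest. Of 36 such checks 1 exceeded Dixon's critical value, and chance gives about 1 in 20 groups. GAREM1 in HF KBD replicate 1 had 24.1 CPM, where the nearest other treated animal had 29.9 CPM, a gap of 0.937 of the range. Without this animal the log2 fold change of GAREM1 in HF KBD over HF saline was 0.06 instead of -0.01. The same animal had the fewest counts of GAREM1 in any library (235), with a counting error of 6.52%.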

How the results depend on the processing

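No paired analysis was possible because the replicate numbers only name animals. Between HF KBD and HF saline, 0 genes and 0 of the 6 members were called under each of 20 alternatives, among them DESeq2 and limma-voom, with 559 genes at an unadjusted p under 0.05 in edgeR, 574 in DESeq2 and 688 in limma. The 35 genes called in HF saline vs chow control became 262 with DESeq2, 18 with limma-voom and 6 with only the 2 groups compared, and 52 without a filter; with 1 animal left out it was 3 to 72 genes (3 without chow control replicate 2 or HF saline replicate 4, and 72 without HF saline replicate 1). Of the 6 members called there, 2 remained with only the 2 groups compared, 5 without a filter, 4 with limma-voom, and 0 to 4 with 1 animal left out. With ART3 and NUP54 summed it was 3 (TLE3, KANK1 and the summed feature, as neither ART3 nor NUP54 is then tested by itself). In that fit GAREM1 and ENSSSCG00000009211 kept nearly the same unadjusted p. Their adjusted p went from 0.0498 and 0.0499 to 0.0514 each (edgeR), so these calls lay at the threshold. In HF KBD vs chow control the 7 genes became 199 with DESeq2, 35 without a filter and 0 to 13 with 1 animal left out (13 without HF KBD replicate 4), and the 0 members became 6 with DESeq2, 2 without a filter (GAREM1 and KANK1), and stayed at 0 in all 12 fits that left out an animal.

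Of 354 log2 fold changes of members under an alternative, 286 kept their direction and their side of the threshold, 55 kept the direction but lost the call, 8 gained a call and 5 changed sign. The sign changed only for HF KBD vs HF saline, in fits that left out an animal, where GAREM1 ranged from -0.046 to 0.060 and KANK1 from -0.013 to 0.086. ART3 ranged from 0.30 to 0.41 and NUP54 from 0.13 to 0.28 in that comparison, TLE3 from 0.15 to 0.36 and ENSSSCG00000009211 from 0.12 to 0.53. With an animal left out, the position of the HF KBD mean, as a fraction of the distance from HF saline to chow control, ranged from -0.09 to 0.11 for GAREM1, 0.17 to 0.33 for TLE3, -0.020 to 0.15 for KANK1, 0.41 to 0.57 for ART3, 0.18 to 0.42 for NUP54 and 0.09 to 0.39 for ENSSSCG00000009211. The cause of these differences between methods was not tested. Depth limits TLE3 most, with a counting error of up to 11.4% in an animal.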

Other observations

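Relatives and partners of the named genes were listed after the members were known, by family and without regard to how they moved. The genes named from these lists were chosen after their values were seen. Of 25 other tested nucleoporins, 0 were called in any comparison (edgeR). At an unadjusted p under 0.05 there were 1 higher and 1 lower in HF saline against chow control. Of all 13476 genes, 1592 were at that level in either direction, a background that also applies to the lists below. The median log2 fold change of the 25 nucleoporins was 0.05 in that comparison, with a range from -0.29 to 0.39, while that of NUP54 was -0.65. The partners of NUP54 in the central channel had means of 11.7, 10.8 and 9.96 CPM (NUP62) and of 75.98, 62.1 and 63.7 CPM (NUP58) in chow control, HF saline and HF KBD. NUP62 ranged from 9.82 to 13.7 CPM in chow control and from 8.84 to 12.3 in HF saline, so its groups overlapped.

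The 4 other tested Groucho genes had log2 fold changes from -0.17 to -0.06 in HF saline against chow control, where TLE3 had -0.99, and none was called or had an unadjusted p under 0.05. TLE5, the short Groucho family gene, had means of 468.4, 438.0 and 425.6 CPM in chow control, HF saline and HF KBD. Among 8 tested KANK genes and adhesion partners of KANK1, KANK2 had 251.8 ± 52.2, 218.1 ± 5.89 and 249.4 ± 10.3 CPM and KANK3 had 54.2 ± 3.26, 52.7 ± 4.45 and 54.03 ± 3.66 CPM (SD, n = 4 each, same order). PHLDB2, an adhesion scaffold, had 155.7 ± 27.6, 122.2 ± 9.14 and 118.4 ± 17.02 CPM (SD, n = 4 each), and KIF21A, a kinesin gene, had 8.57 ± 1.47, 10.8 ± 1.65 and 11.2 ± 0.884 CPM (SD, n = 4 each). These were the 1 lower and the 1 higher gene of the list at an unadjusted p under 0.05 in HF saline against chow control, and none of the 8 was called. The 8 tested signalling partners of GAREM1 had log2 fold changes from -0.19 to 0.21 in HF saline against chow control, with 0 called and 1 at an unadjusted p under 0.05. Of 3 other genes of the ART family only ART4 passed the filter, with means of 7.404, 5.63 and 5.34 CPM in chow control, HF saline and HF KBD and no call.

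The 6 other genes called lower in HF saline, which are no members, are given with their means in chow control, HF saline and HF KBD. FBN2, a fibrillin gene, had 5.25, 0.798 and 1.06 CPM, and TNIP1 had 206.5, 135.9 and 145.05 CPM. P4HA1, a collagen prolyl hydroxylase gene, had 43.4, 22.4 and 22.4 CPM, and NPR3 had 113.3, 69.7 and 77.0 CPM. DPYSL2 had 118.7, 79.0 and 69.4 CPM, and TMEM35A had 22.1, 10.4 and 16.2 CPM. Of these 6, TMEM35A alone had a log2 fold change of HF KBD over HF saline with an unadjusted p under 0.05 (0.63, edgeR, unadjusted p = 0.00513, adjusted p = 1.00).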
